A study of Gallus gallus with 24 samples.

Results

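Cell cycle and DNA replication genes were described in the ileum of Arbor Acres broilers, a fast-growing meat chicken. The members were taken from a list of 58 gene symbols, and 55 of them were among the 25339 genes of the deposited table, 19 that act in DNA replication and 36 that act in mitosis. TYMS, SPC24 and MKI67 were not analysed here. Bulk RNA of 24 birds aged 14 d was measured, with 6 birds in each of 4 groups. SPM birds received Salmonella pullorum by mouth on day 5 of age, in 0.5 mL, and ate a diet with 300 mg/kg magnolol. SPH birds received the same dose of bacteria and ate a diet with 300 mg/kg honokiol. SP birds received the bacteria and the basal diet. CTL birds received 0.5 mL of sterile buffer and the basal diet. Magnolol and honokiol are biphenyl compounds of magnolia bark and are isomers of each other, and both were given at 1 dose only. One bird was taken from each of 6 replicates of a group, and CTL birds were housed apart from challenged birds, so that the challenge and the place of housing cannot be told apart.

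A cell copies its DNA once per cycle and then divides the copies between daughter cells. Origins are licensed when the origin recognition complex and CDC6 load the MCM helicase, the helicase is switched on with CDC45 and the GINS complex, and the sliding clamp PCNA holds polymerases on the DNA. In mitosis the kinase CDK1 with A- and B-type cyclins drives entry, kinetochores attach chromosomes to the spindle, kinesins move along its microtubules, and a checkpoint holds separation until every chromosome is attached. In the gut, the dividing cells are mainly those of the epithelial crypts, and the dividing lymphocytes of the mucosa carry the same genes.

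The recovered depth was 14393822 to 19435410 reads per bird, with a median of 16234879, and the 54 members tested had 35 to 2622 reads in a bird. FPKM, fragments per kilobase of gene with a correction for library size, was the unit of the table. W chromosome transcripts, which only female birds have, summed to at least 512 FPKM in 16 birds and at most 3.26 FPKM in the other 8 birds. All 6 CTL birds carried them, against 4 SPM, 3 SPH and 3 SP birds. Sex therefore differed between CTL and the challenged groups, and each comparison was also run in birds with W transcripts alone. SP replicate 2 had the lowest level of both gene families among the SP birds, but neither level passed the outlier check given below (Dixon's gap). The tissue label was checked because the extraction text of the labels speaks of retinas: APOA1 and FABP1, defining genes of absorbing gut cells, averaged 5146 and 3943 FPKM, whereas RPE65 of the retina averaged 1.14 FPKM. In bulk tissue, fewer dividing cells and less RNA per dividing cell cannot be told apart.

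The members were expressed at moderate levels. Mean FPKM over the 24 birds lay between 1.86 for CCNE2, a cyclin of the start of S phase, and 67.8 for PCNA, with a median of 8.49 over the 54 members tested. Replication genes had a median of 9.19 FPKM and mitotic genes one of 8.38 FPKM. CCNB3, a cyclin best known from meiosis in mice, was the 1 member under the filter of 0.1 FPKM on the mean: it had 1 read in 1 SP bird and none in the other birds, and it was not tested. PRC1, a protein that bundles spindle microtubules, was measured over a gene model of 783 bases.

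The levels of both families were summarised per bird as the mean of log2(FPKM + 0.1), centred over the 24 birds. The replication level was -0.26 ± 0.20 in SPM, 0.08 ± 0.24 in SPH, 0.20 ± 0.29 in SP and -0.02 ± 0.20 in CTL birds (mean ± SD, n = 6 each). The mitotic level was -0.28 ± 0.27 in SPM, 0.05 ± 0.29 in SPH, 0.22 ± 0.29 in SP and 0.01 ± 0.25 in CTL birds (mean ± SD, n = 6 each). Both families had the same order, with SPM lowest, then CTL, then SPH, and SP highest. CTL, SPH and SP, neighbours in that order, were closer to each other than 1 SD between birds, and SPM lay about 1 SD from CTL. Each group's range overlapped the ranges of the other groups, and every SPM bird lay below the centre of all birds in both families.

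**Figure D1:**
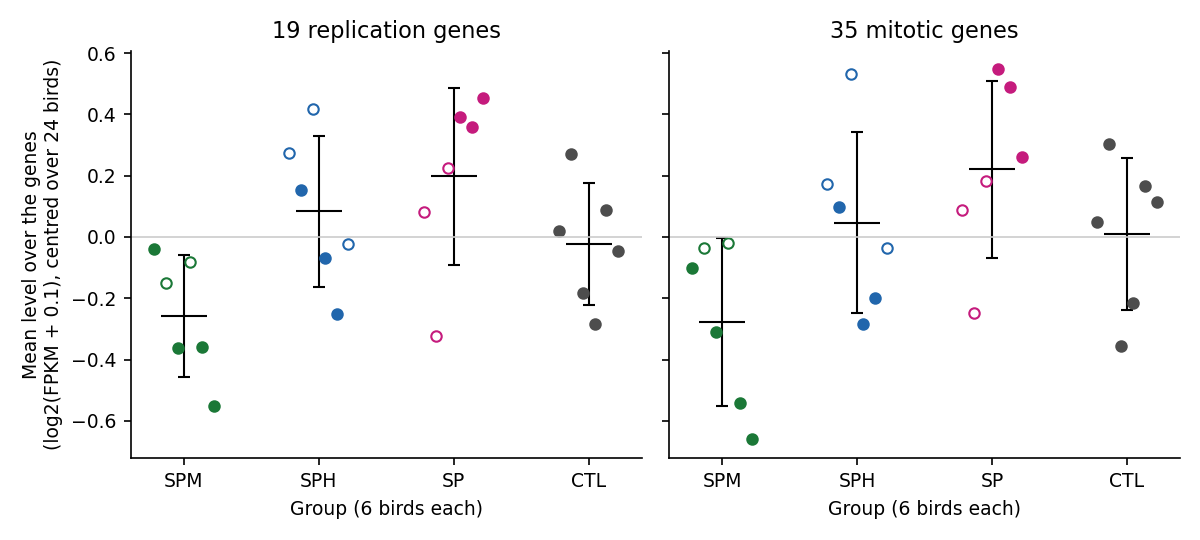
Mean level of the 19 replication genes and of the 35 mitotic genes in each bird, as log2(FPKM + 0.1) centred over the 24 birds, by group. Points are birds, filled with and open without W transcripts, long lines are group means and bars are 1 SD. All SPM birds sit below 0, and the lowest SP bird is replicate 2.

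Magnolol-supplemented birds were compared with challenged birds on the basal diet to ask how these genes differed with the supplement. All 54 members had lower mean levels in SPM than in SP birds, and the median log2 fold change was -0.48 over the 19 replication genes and -0.47 over the 35 mitotic genes. Over all 17288 genes tested the median was 0.01, and 48.0% of genes were lower. No member passed the call, which asked for a Benjamini-Hochberg adjusted p under 0.05 with limma and a log2 fold change past 0.5 either way, and 0% of all genes did. At an unadjusted limma p under 0.05, 41 of the 54 members were lower in SPM than in SP birds, against 8.73% of all genes. Of these, 22 also passed the fold limit, against 3.2% of all genes. The members were chosen with earlier results of these data known, and they varied together from bird to bird. Counts of members, here and in the comparisons below, are therefore descriptions and not counts of separate observations. In 41 members all 6 SPM birds lay below the median of the SP birds. This was counted in the members only, so it has no share over all genes beside it. In no member were the groups free of overlap, which 0.515% of all genes were in that direction.

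The licensing and helicase genes included the member with the smallest p. All 10 of these genes were lower in SPM than in SP birds, 6 of them at an unadjusted limma p under 0.05, and the median log2 fold change was -0.54. MCM2, a subunit of the helicase ring, lay at 8.64 to 15.4 FPKM in SPM (median 12.4), 12.4 to 18.5 in SPH (median 16.9), 14.6 to 21.0 in SP (median 19.6) and 13.9 to 18.9 in CTL birds (median 14.8). Of the 6 SPM birds, 5 were below every SP bird. Its log2 fold change in SPM compared with SP was -0.63 (SE 0.13), with a Benjamini-Hochberg adjusted limma p of 0.094 and an exact two-sided permutation p of 0.00433. MCM5, the most abundant helicase subunit listed, lay at 11.0 to 17.0 FPKM in SPM (median 14.1), 14.8 to 26.2 in SPH (median 18.6), 14.8 to 27.9 in SP (median 22.4) and 13.3 to 22.6 in CTL birds (median 18.2). MCM4 lay at 10.1 to 16.4 FPKM in SPM (median 14.2), 14.7 to 20.6 in SPH (median 16.9), 14.5 to 22.1 in SP (median 19.7) and 12.9 to 18.4 in CTL birds (median 15.9). In both genes, 4 of 6 SPM birds were below every SP bird. The log2 fold changes of SPM compared with SP were -0.67 for MCM5 (SE 0.16) and -0.48 for MCM4 (SE 0.11), each with an adjusted limma p of 0.105 (Benjamini-Hochberg) and an exact permutation p of 0.00649.

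ORC1, the large subunit of the origin recognition complex, had the widest difference of the replication genes. It lay at 2.23 to 3.40 FPKM in SPM (median 2.97), 2.87 to 4.58 in SPH (median 3.52), 3.37 to 7.89 in SP (median 4.97) and 3.13 to 7.37 in CTL birds (median 3.56). Of 6 SPM birds, 5 were below every SP bird, and the log2 fold change in SPM compared with SP was -0.80 (SE 0.20, adjusted limma p 0.116 by Benjamini-Hochberg, exact permutation p 0.00433). GINS1, a subunit of the GINS complex, had the smallest difference. It lay at 6.23 to 8.49 FPKM in SPM (median 6.91), 6.55 to 10.7 in SPH (median 9.38), 6.51 to 9.33 in SP (median 7.49) and 5.37 to 8.63 in CTL birds (median 7.55). The log2 fold change of GINS1 in SPM compared with SP was -0.13, with a 95% interval of -0.39 to 0.13.

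Of the fork and nucleotide supply genes, all 5 were lower in SPM than in SP birds at an unadjusted limma p under 0.05, and the median log2 fold change was -0.48. PCNA lay at 46.3 to 65.8 FPKM in SPM (median 55.7), 60.2 to 85.0 in SPH (median 73.3), 54.4 to 90.2 in SP (median 78.9) and 55.2 to 78.5 in CTL birds (median 63.8). All 6 SPM birds were below the SP median, and 3 were below every SP bird, the lowest of which was replicate 2. The PCNA log2 fold change in SPM compared with SP was -0.42 (SE 0.11), with a Benjamini-Hochberg adjusted limma p of 0.124 and an exact permutation p of 0.013. Checkpoint and repair genes had the smallest median of the 9 role lists, -0.27, and 1 of 4 of them, the nuclease EXO1, was under an unadjusted limma p of 0.05. CHEK1, the kinase that slows the cycle when forks stall, lay at 4.15 to 6.23 FPKM in SPM (median 4.85), 4.76 to 8.57 in SPH (median 6.15), 4.26 to 7.59 in SP (median 5.79) and 3.84 to 7.10 in CTL birds (median 5.09). Its log2 fold change in SPM compared with SP was -0.24, with a 95% interval of -0.57 to 0.09.

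**Figure D2:**
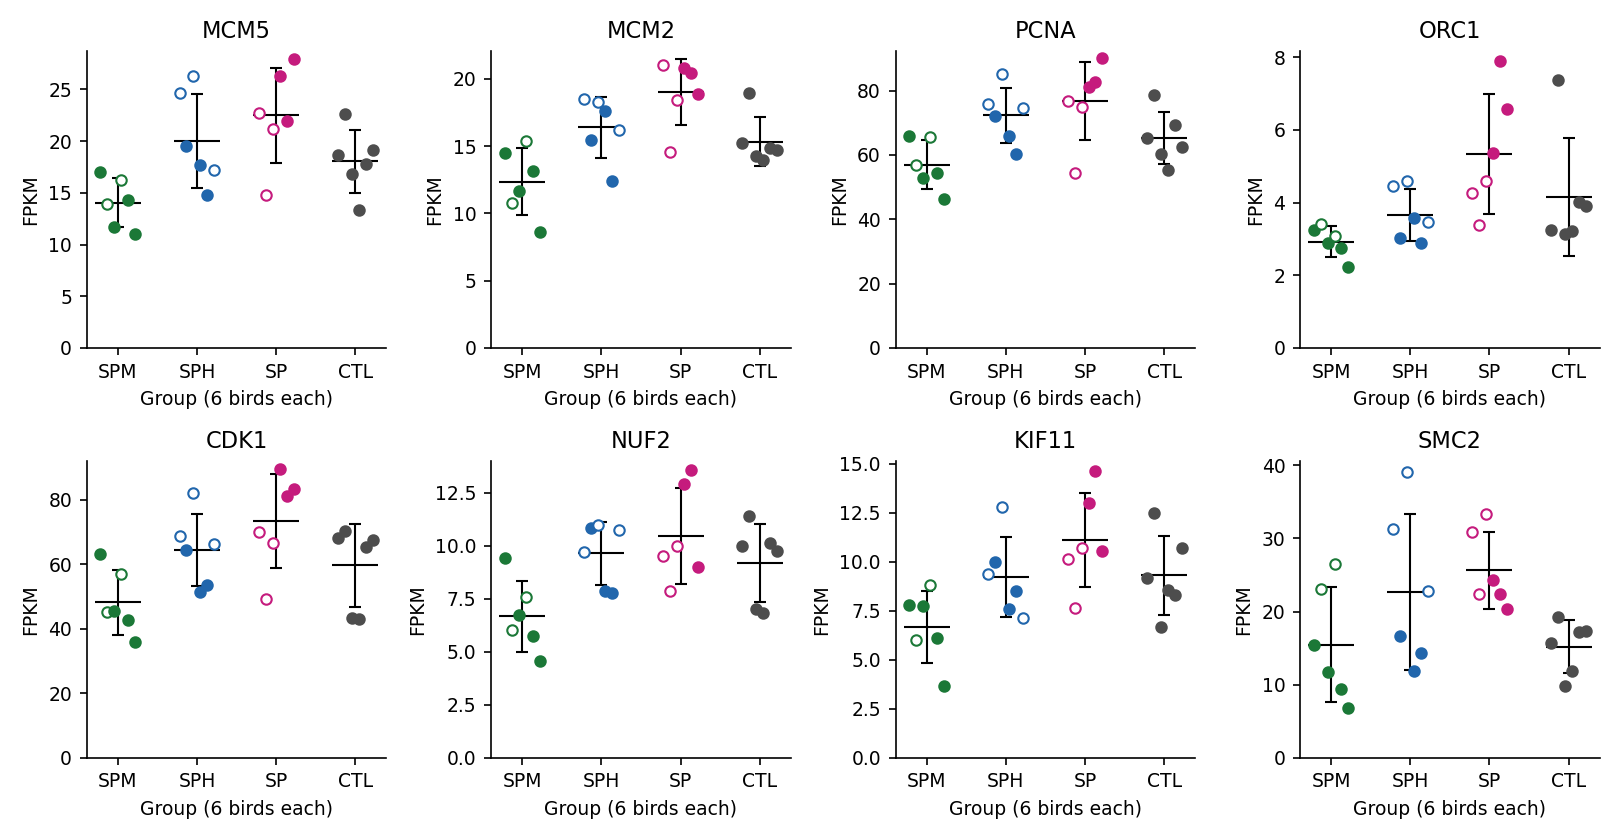
FPKM of 8 members in each bird, by group: MCM5, MCM2, PCNA and ORC1 of replication and CDK1, NUF2, KIF11 and SMC2 of mitosis. Points are birds, filled with and open without W transcripts, long lines are means and bars are 1 SD over 6 birds. In MCM2 and ORC1, 5 of 6 SPM birds sit below every SP bird.

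The mitotic cyclins and kinases had the widest differences of all role lists. All 6 genes tested, CDK1, CCNA2, CCNB2, AURKA, PLK1 and NEK2, were lower in SPM than in SP birds at an unadjusted limma p under 0.05 and past the fold limit; their median was -0.68 and their range -0.73 to -0.57 on the log2 scale. CDK1 lay at 35.8 to 63.0 FPKM in SPM (median 45.2), 51.5 to 82.1 in SPH (median 65.2), 49.3 to 89.4 in SP (median 75.6) and 43.2 to 70.4 in CTL birds (median 66.5). Of 6 SPM birds, 4 were below every SP bird. The CDK1 log2 fold change in SPM compared with SP was -0.60 (SE 0.16), with a Benjamini-Hochberg adjusted limma p of 0.124 and an exact permutation p of 0.0108. NEK2, a kinase that splits the centrosomes, lay at 3.51 to 7.35 FPKM in SPM (median 5.37), 5.29 to 12.3 in SPH (median 6.43), 5.28 to 11.6 in SP (median 9.29) and 5.44 to 10.2 in CTL birds (median 6.99). Its highest value belonged to SPH replicate 3, and the other 5 SPH birds reached at most 6.63 FPKM.

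Of the kinetochore genes, 9 of 9 were lower in SPM than in SP birds, 8 of them at an unadjusted limma p under 0.05, and their median was -0.53 on the log2 scale. NUF2 and SPC25 are parts of the NDC80 complex, which binds microtubules. NUF2 lay at 4.54 to 9.41 FPKM in SPM (median 6.37), 7.78 to 11.0 in SPH (median 10.2), 7.85 to 13.6 in SP (median 9.74) and 6.82 to 11.4 in CTL birds (median 9.88). SPC25 lay at 5.51 to 7.38 FPKM in SPM (median 6.69), 6.12 to 13.2 in SPH (median 8.56), 6.86 to 12.8 in SP (median 10.5) and 6.86 to 11.1 in CTL birds (median 8.34). In NUF2, 5 of 6 SPM birds were below every SP bird, and in SPC25 4 of 6 were. The log2 fold change in SPM compared with SP was -0.65 for NUF2 (SE 0.17, adjusted limma p 0.121 by Benjamini-Hochberg, exact permutation p 0.00866) and -0.62 for SPC25 (SE 0.17, adjusted limma p 0.124, exact permutation p 0.00649). KNSTRN, a spindle and kinetochore protein and the most abundant of the list, lay at 6.59 to 10.2 FPKM in SPM (median 8.89), 7.55 to 14.3 in SPH (median 11.1), 7.94 to 16.4 in SP (median 14.0) and 9.70 to 11.3 in CTL birds (median 10.2). CENPP, a protein of the inner kinetochore, lay at 2.23 to 3.83 FPKM in SPM (median 2.65), 2.98 to 4.33 in SPH (median 3.50), 2.52 to 5.16 in SP (median 4.12) and 2.52 to 3.65 in CTL birds (median 3.22). CENPN, of the same inner complex, lay at 3.84 to 6.12 FPKM in SPM (median 5.83), 4.59 to 7.71 in SPH (median 5.49), 5.05 to 8.16 in SP (median 6.75) and 4.35 to 6.50 in CTL birds (median 6.15). In these 3 genes all 6 SPM birds were below the SP median, and 2 of 6 were below every SP bird.

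Among the kinesin motors, 7 of 7 were lower in SPM than in SP birds, 5 at an unadjusted limma p under 0.05, and the median log2 fold change was -0.47. KIF11, the motor that pushes spindle poles apart, lay at 3.64 to 8.79 FPKM in SPM (median 6.93), 7.15 to 12.8 in SPH (median 8.94), 7.66 to 14.6 in SP (median 10.6) and 6.66 to 12.5 in CTL birds (median 8.85). Its log2 fold change in SPM compared with SP was -0.75 (SE 0.19), with a Benjamini-Hochberg adjusted limma p of 0.121 and an exact permutation p of 0.00866, and 3 of 6 SPM birds were below every SP bird. KIF23, a motor of cytokinesis and the most abundant kinesin, lay at 6.89 to 12.2 FPKM in SPM (median 10.2), 8.54 to 13.6 in SPH (median 10.9), 8.87 to 14.9 in SP (median 11.1) and 7.86 to 12.3 in CTL birds (median 11.3). The 4 groups overlapped over most of their range in KIF23, and its log2 fold change in SPM compared with SP was -0.18 with a 95% interval of -0.50 to 0.13.

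The spindle checkpoint and the spindle and cytokinesis lists were lower by less at the median. Spindle checkpoint genes had a median log2 fold change of -0.38 in SPM compared with SP, and 2 of 3 were under an unadjusted limma p of 0.05. MAD2L1, the checkpoint protein that holds back the start of anaphase, lay at 7.03 to 10.9 FPKM in SPM (median 8.64), 6.98 to 14.6 in SPH (median 9.74), 7.25 to 14.2 in SP (median 11.2) and 7.85 to 11.0 in CTL birds (median 9.42). Its log2 fold change in SPM compared with SP was -0.32 with a 95% interval of -0.69 to 0.06. Spindle and cytokinesis genes also had a median of -0.38, with 4 of 6 under an unadjusted limma p of 0.05. TPX2, which activates AURKA on the spindle, lay at 8.22 to 11.6 FPKM in SPM (median 9.98), 8.80 to 18.0 in SPH (median 11.4), 10.1 to 19.1 in SP (median 13.9) and 9.15 to 15.7 in CTL birds (median 11.4). PRC1 lay at 9.18 to 16.9 FPKM in SPM (median 13.0), 11.6 to 21.9 in SPH (median 15.2), 10.2 to 23.3 in SP (median 16.9) and 13.5 to 20.1 in CTL birds (median 15.8). In SPM compared with SP the log2 fold change was -0.54 for TPX2 (SE 0.17, exact permutation p 0.00866, adjusted limma p 0.142 by Benjamini-Hochberg) and -0.36 for PRC1 (95% interval -0.77 to 0.04).

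All 4 genes of chromosome structure and separation were lower in SPM than in SP birds at an unadjusted limma p under 0.05, and the median log2 fold change was -0.47. SMC2, a condensin subunit, was the 1 member on the Z chromosome (66668700 to 66692579 in the deposited table, whose processing notes name the chicken build GRCg6a), which male birds carry as a pair and females singly. It lay at 6.76 to 26.5 FPKM in SPM (median 13.5), 11.9 to 39.0 in SPH (median 19.7), 20.4 to 33.4 in SP (median 23.3) and 9.87 to 19.3 in CTL birds (median 16.5). Of 6 SPM birds, 4 were below every SP bird, and the log2 fold change in SPM compared with SP was -0.86 (SE 0.30, adjusted limma p 0.183 by Benjamini-Hochberg, exact permutation p 0.0303). Over all groups SMC2 had a median of 15.5 FPKM in the 16 birds with W transcripts, against 28.7 FPKM in the 8 birds without.

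**Figure D3:**
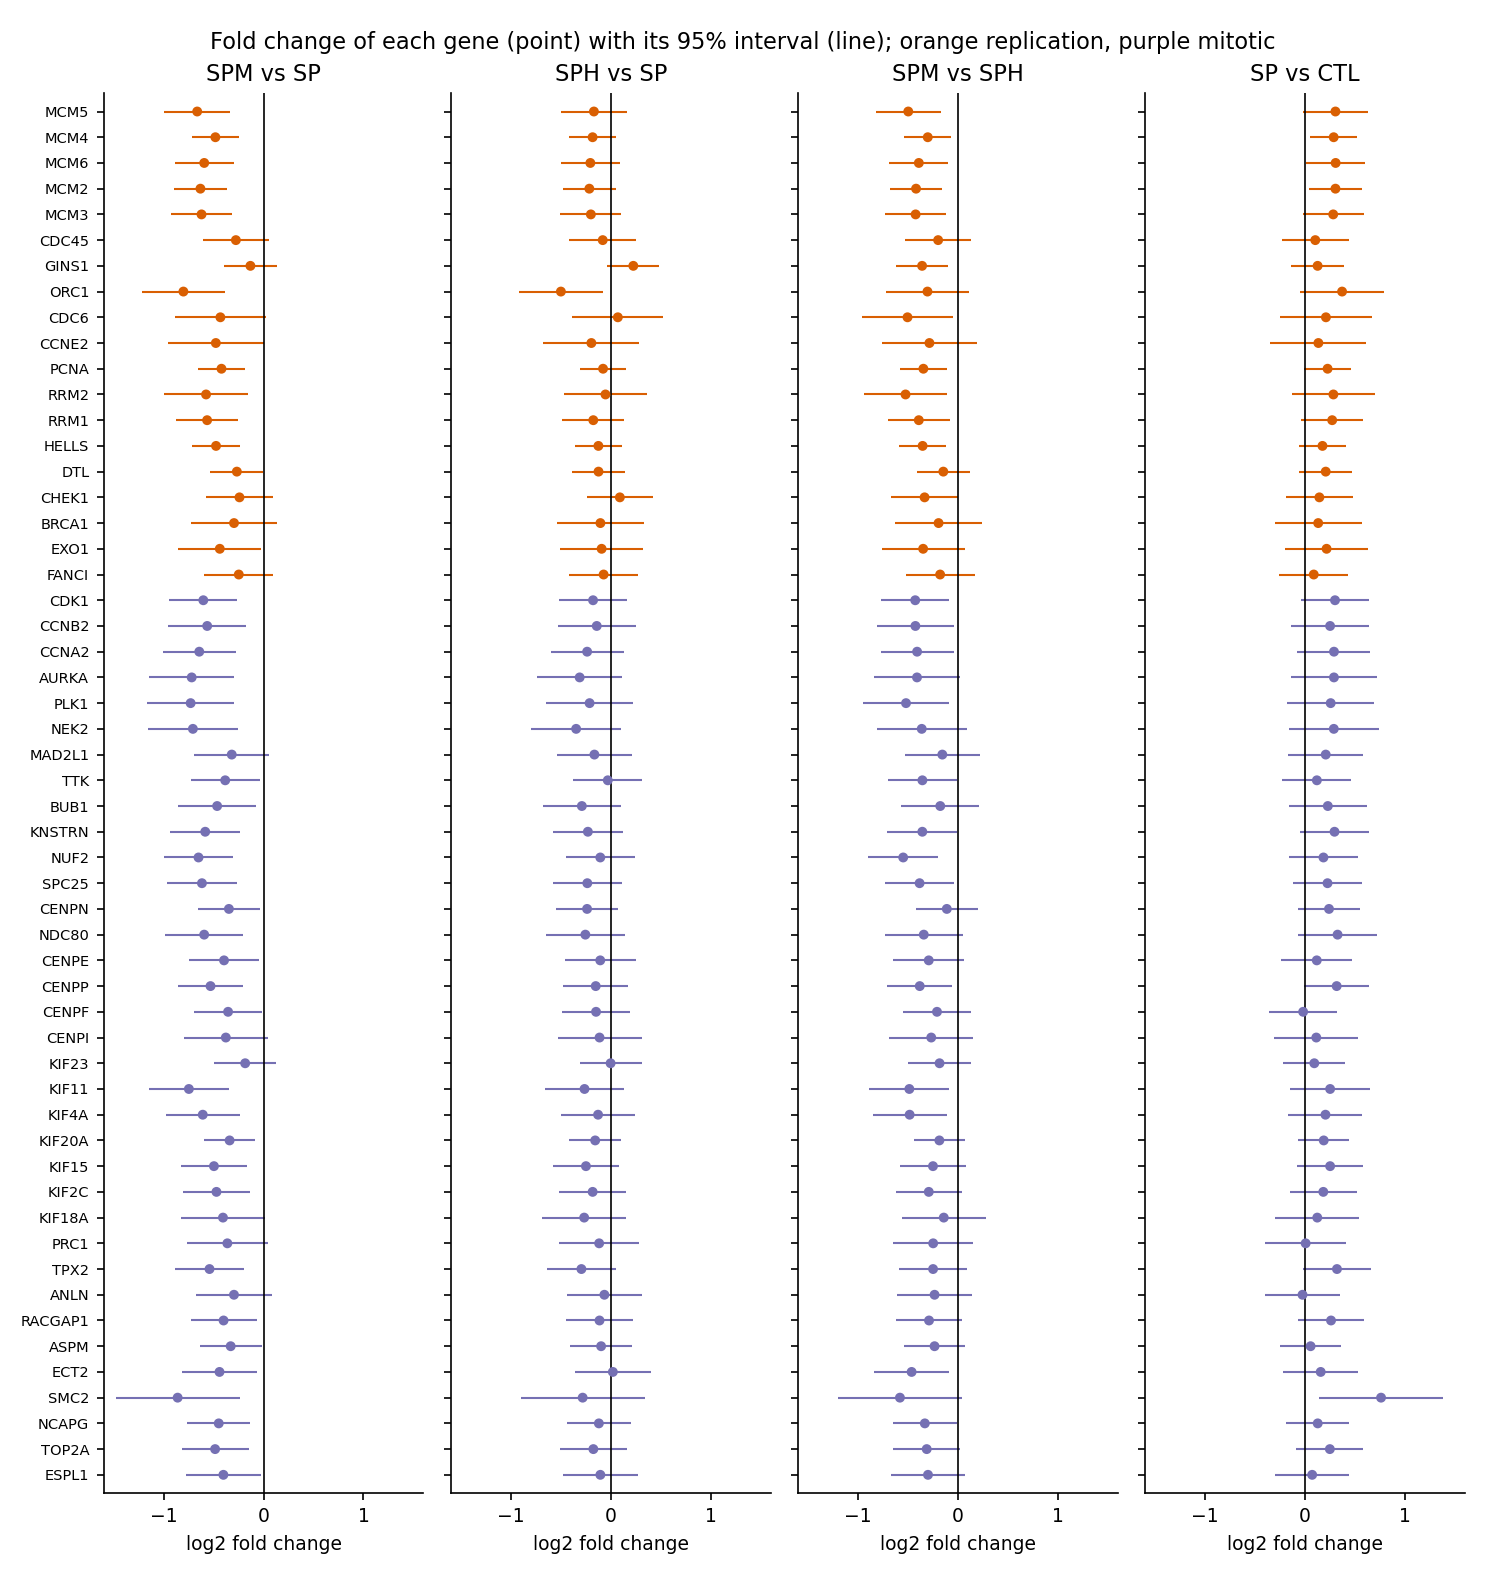
Log2 fold change of each of the 54 members (point) with its 95% interval from limma (line) in 4 comparisons, replication genes above and mitotic genes below. All points lie left of 0 in SPM compared with SP and in SPM compared with SPH, and 52 of 54 lie right of 0 in SP compared with CTL.

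Honokiol-supplemented birds were next compared with challenged birds on the basal diet. Of the 54 members, 50 were lower in SPH than in SP birds (48.3% of all genes were), with medians of -0.12 over replication genes and -0.16 over mitotic genes, both smaller than the spread of the levels between birds of a group (SD 0.235 and 0.277). No member passed the call, nor did any gene (0%). At an unadjusted limma p under 0.05 there was 1 member lower, ORC1, against 5.62% of all genes. In ORC1 all 6 SPH birds were below the SP median and 2 were below every SP bird, and the log2 fold change was -0.50 (SE 0.20, adjusted limma p 0.475 by Benjamini-Hochberg, exact permutation p 0.0455). The members higher in SPH than in SP birds were GINS1, CHEK1, CDC6 and ECT2. GINS1 was the furthest of these at 0.23 with a 95% interval of -0.04 to 0.49, and 3 of 6 SPH birds were above every SP bird. The mitotic genes with the smallest p were TPX2 at -0.29 (95% interval -0.64 to 0.05), NEK2 at -0.35 (-0.80 to 0.10) and CENPN at -0.24 (-0.55 to 0.08), and each interval included 0.

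The isomers were then compared with each other at the same dose and age, as 1 pair. All 54 members were lower in SPM than in SPH birds (48.8% of all genes were), with medians of -0.35 over replication genes and -0.31 over mitotic genes. No member passed the call, with a Benjamini-Hochberg adjusted limma p of 0.996 for every member, and 0% of all genes did. At an unadjusted limma p under 0.05, 25 members were lower, against 2.33% of all genes, and 4 of these were past the fold limit, against 0.925% of all genes. In birds with W transcripts alone, 4 SPM against 3 SPH, 3 replication and 1 mitotic genes were lower at that p, with medians of -0.26 and -0.28. In birds without, 2 against 3, there were 3 and 5, with medians of -0.41 and -0.22. Shares over all genes in these smaller sets of birds are not given here. Over all birds of the 2 groups, the exact permutation p was under 0.05 in 20 members. This test used the same birds as limma and was not run over all genes, so this count has no share beside it. NUF2 had the smallest p of the mitotic genes: 5 of 6 SPM birds were below every SPH bird, and the log2 fold change was -0.55 with a 95% interval of -0.90 to -0.20 and an exact permutation p of 0.0108. For MCM5 it was -0.50 (-0.82 to -0.17) and for MCM2 -0.42 (-0.68 to -0.16), with exact permutation p-values of 0.0108 and 0.0195. KIF4A, a chromosome-bound kinesin, lay at 4.62 to 7.41 FPKM in SPM (median 6.29), 6.25 to 13.1 in SPH (median 8.55), 7.11 to 13.0 in SP (median 9.22) and 6.25 to 10.6 in CTL birds (median 8.68). Its log2 fold change in SPM compared with SPH was -0.48 (95% interval -0.85 to -0.11), and that of CDK1 was -0.43 (-0.77 to -0.09). CENPN at -0.11 (-0.42 to 0.20), MAD2L1 at -0.16 (-0.53 to 0.22) and KIF23 at -0.18 (-0.49 to 0.13) had intervals on both sides of 0. The comparisons of SPM with SP and of SPH with SP share the SP birds, and those of SPM with SPH and of SPM with SP share the SPM birds.

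Challenged birds were compared with CTL birds to ask how these genes differed with S. pullorum. Of the 54 members, 52 were higher in SP than in CTL birds (48.7% of all genes were), with medians of 0.22 over replication genes and 0.23 over mitotic genes, against -0.00462 over all genes tested. No member passed the call (0% of all genes did), and 4 were higher at an unadjusted limma p under 0.05, MCM2, MCM4, MCM6 and SMC2, against 2.87% of all genes. In birds with W transcripts alone, 3 SP against 6 CTL, the medians were 0.41 over replication and 0.41 over mitotic genes. At that limit, 13 of 19 replication and 18 of 35 mitotic genes were higher, against 5.07% of all genes. These 3 SP birds also had the highest levels of both families among the SP birds. With all birds and a term for W transcripts, the medians were 0.22 and 0.18, and 31 of 35 mitotic genes were higher. With that term, 1 replication gene and 0 mitotic genes were higher at that limit, and the share over all genes is not given here. MCM4 had 5 of 6 SP birds above every CTL bird and a log2 fold change of 0.29 (SE 0.11, adjusted limma p 0.767 by Benjamini-Hochberg, exact permutation p 0.0325). MCM2 had 3 of 6 SP birds above every CTL bird and a log2 fold change of 0.31 (SE 0.13, exact permutation p 0.0303). CENPP and TPX2, the mitotic genes with the next smallest p, each had a log2 fold change of 0.32 and intervals of -0.01 to 0.65 and -0.02 to 0.66. SMC2 was the 1 member whose groups did not overlap, at 25.6 ± 5.27 FPKM in SP and 15.2 ± 3.61 FPKM in CTL birds (mean ± SD, n = 6 each), against 0.116% of all genes free of overlap in that direction. Its log2 fold change was 0.76 (SE 0.30, adjusted limma p 0.767, exact permutation p 0.00216, the smallest that regrouping the 12 birds allows), and with a term for W transcripts it was 0.32. Within birds with W transcripts SMC2 still lay at 20.4 to 24.3 FPKM in 3 SP birds and 9.87 to 19.3 FPKM in 6 CTL birds.

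The supplemented groups were also compared with CTL. All 54 members were lower in SPM than in CTL birds (51.2% of all genes were), with medians of -0.22 over replication and -0.28 over mitotic genes, and 13 were at an unadjusted limma p under 0.05, against 2.62% of all genes. In birds with W transcripts alone, 4 SPM against 6 CTL, the medians were -0.33 and -0.41, with 11 replication and 24 mitotic genes at that limit. With all birds and a term for W transcripts, the medians were -0.23 and -0.32, with 4 and 6 genes at that limit. Shares over all genes in these fits are not given here. In SPH compared with CTL, 41 of 54 members were higher (47.6% of all genes were), with medians of 0.10 and 0.03, and 1 was at an unadjusted limma p under 0.05, against 1.84% of all genes. In birds with W transcripts alone, 3 SPH against 6 CTL, the direction turned: 10 of 19 replication and 32 of 35 mitotic genes were lower in SPH than in CTL birds, with medians of -0.01 and -0.17. With a term for W transcripts, 19 of 35 mitotic genes were lower in SPH than in CTL birds. No member passed the call in either comparison (0% of all genes in both). The place of housing moved with each comparison that involved CTL.

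The members varied together from bird to bird. Over 1431 pairs of members the median Pearson r across the 24 birds was 0.77, the range was 0.18 to 0.96, and no pair was below 0. With group means removed the median was 0.71, and all points share the depth and composition of 1 library per bird. The replication level and the mitotic level had a Pearson r of 0.94 and a Spearman rank correlation of 0.94 over 24 birds, and a Pearson r of 0.91 with group means removed. CCNB2, a B-type cyclin, was most like the mean of the other members with r = 0.98, followed by CCNA2 with 0.97. GINS1 was least like it with r = 0.51, followed by DTL, a subunit of a ubiquitin ligase that acts on licensing factors, with 0.62 and the repair gene BRCA1 with 0.65.

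**Figure D4:**
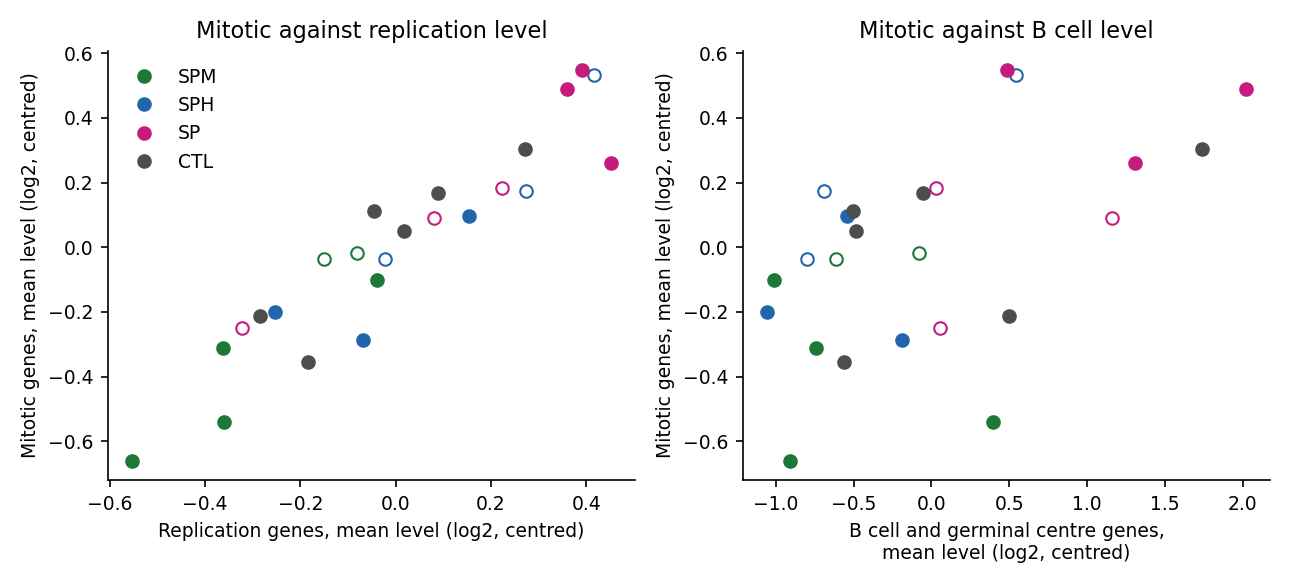
Mean level of the mitotic genes against that of the replication genes (left) and against that of B cell and germinal centre genes (right) in 24 birds, all as log2(FPKM + 0.1) centred over the birds. Colours are groups, filled points have W transcripts and open points do not. The families lie close to 1 line (r = 0.94), and the points are more scattered against the B cell level (r = 0.54).

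Other cell cycle genes gave the wider setting. Of 132 such genes tested, 117 were lower in SPM than in SP birds, 62 at an unadjusted limma p under 0.05, and 1 was higher at that limit. Over all genes tested, 48.0% were lower and 8.73% were lower at that limit. Mitotic genes outside the members were lower in 54 of 55 cases, 36 of them at that limit, with a median of -0.42, and replication genes in 36 of 40, 20 of them at that limit, with a median of -0.30. PBK, a mitotic kinase, averaged 9.69 ± 2.79 FPKM in SPM and 15.4 ± 2.76 FPKM in SP birds (mean ± SD, n = 6 each), a log2 fold change of -0.69 (SE 0.17). RPA1, which coats single-stranded DNA, averaged 14.1 ± 0.915 FPKM in SPM and 17.9 ± 1.98 FPKM in SP birds (mean ± SD, n = 6 each). CDT1, which loads the helicase with CDC6, averaged 7.73 ± 1.48 FPKM in SPM and 11.5 ± 2.40 FPKM in SPH birds (mean ± SD, n = 6 each). FANCD2, the repair gene that was higher, was named after its values were seen and averaged 15.9 ± 0.780 FPKM in SPM and 12.6 ± 3.59 FPKM in SP birds (mean ± SD, n = 6 each).

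Genes that govern entry into the cycle were counted in 3 further lists. The shares over all genes were again 48.0% lower in SPM than in SP birds, and 8.73% lower at an unadjusted limma p under 0.05. Of 11 G1 cyclins and kinases 8 were lower in SPM than in SP birds, with a median of -0.06, and 1 passed an unadjusted limma p of 0.05, the D-type cyclin CCND3 at -0.43 (SE 0.15). CCND1, another D-type cyclin, was at -0.06 (SE 0.11). Of 11 inhibitors and pocket proteins 6 were lower and none passed that limit, with a median of -0.07. CDKN1B, an inhibitor of cyclin-dependent kinases, averaged 51.5 ± 6.18 FPKM in SPM and 47.3 ± 4.80 FPKM in SP birds, and CDKN1A 13.4 ± 4.85 FPKM in SPM and 17.8 ± 8.14 FPKM in SP birds (mean ± SD, n = 6 each). Of 15 E2F and DREAM regulators, transcription factors that control the members' promoters in mammals, 13 were lower, 5 at that limit, with a median of -0.24. E2F7, a repressor of that family, averaged 1.61 ± 0.327 FPKM in SPM and 2.73 ± 0.403 FPKM in SP birds (mean ± SD, n = 6 each) without overlap, with an exact permutation p of 0.00216. Of all genes, 0.515% were free of overlap in that direction. MYBL2, an activator, was at -0.56 (SE 0.20) and FOXM1, the activator of mitotic genes, at -0.24 (SE 0.21). In SP compared with CTL, 116 of the 132 genes were higher (48.7% of all genes were), 15 of them at an unadjusted limma p under 0.05, against 2.87% of all genes.

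Markers of lymphocytes moved with the groups as well. Of 13 B cell and germinal centre genes, 13 were lower in SPM than in SP birds with a median of -0.79, and of 11 T cell genes 11 were lower with a median of -0.73. The shares of all genes that were lower were 48.0% in SPM compared with SP, 48.3% in SPH compared with SP and 48.8% in SPM compared with SPH. The summed B cell FPKM, mostly IRF8, was 143 to 183 in SPM, 142 to 240 in SPH, 172 to 288 in SP and 159 to 265 in CTL birds. IRF8 averaged 114 FPKM in SPM, 126 in SPH, 135 in SP and 118 in CTL birds. The sum therefore follows this gene more than the rest of the list. The summed T cell FPKM was 164 to 306 in SPM, 196 to 324 in SPH, 285 to 425 in SP and 186 to 399 in CTL birds. In SPH compared with SP these lists were lower by similar medians, -0.80 for B cells (12 of 13) and -0.70 for T cells (11 of 11), where the members' medians were -0.12 and -0.16. In SPM compared with SPH the medians were -0.05 for B cells, with 7 of 13 lower, and -0.09 for T cells, with 7 of 11 lower, where all 54 members were lower. The B cell level had a Pearson r of 0.55 with the replication level and 0.54 with the mitotic level over 24 birds. In the same order, r was 0.51 and 0.39 for crypt stem and progenitor genes, 0.52 and 0.51 for plasma cell genes and 0.43 and 0.36 for goblet cell genes. With group means removed, r was 0.45 and 0.39 for B cell genes, 0.44 and 0.45 for T cell genes and 0.47 and 0.41 for plasma cell genes. It was 0.53 and 0.61 for macrophage and dendritic cell genes and 0.36 and 0.18 for crypt genes. For goblet cell genes, a list of only 3 genes here, it was 0.39 and 0.34. Crypt stem and progenitor genes were lower in 8 of 13 cases in SPM compared with SP, with a median of -0.08. OLFM4, a crypt marker in mammals and the most abundant of that list, averaged 439 FPKM in SPM, 787 in SPH, 704 in SP and 760 in CTL birds. The stem cell marker LGR5 went the other way, at 2.58 FPKM in SPM and 2.43 in SP birds on average. The summed crypt FPKM, mostly OLFM4, ranged widely between birds: 112 to 839 in SPM, 598 to 1002 in SPH, 531 to 956 in SP and 453 to 1366 in CTL birds. No list had its defining genes at 0 in every bird except the retina list, where OTX2 was. The part of these cell types in the members' levels was not tested.

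The size of the differences moved with the presence of W transcripts. In birds with W transcripts, 4 SPM against 3 SP, the medians were -0.76 over replication genes and -0.85 over mitotic genes, and 15 members passed the call by limma with Benjamini-Hochberg adjustment, against 0.416% of all genes in that direction. These were 6 replication and 9 mitotic genes, with log2 fold changes of -1.28 to -0.64. In birds without W transcripts, 2 SPM against 3 SP, the medians were -0.12 and -0.01, with 13 of 19 replication and 20 of 35 mitotic genes lower. For SPH compared with SP the medians were -0.41 and -0.56 in birds with W transcripts (3 against 3), and 0.21 and 0.23 in birds without (3 against 3). The replication level was 0.36 to 0.45 in the 3 SP birds with W transcripts. In the 3 SP birds without, it was -0.32 in replicate 2, 0.08 in replicate 1 and 0.22 in replicate 3. The mitotic level of these birds was -0.25, 0.09 and 0.18, in the same order. The strata of SP birds differed in more than W transcripts. The mean level of macrophage and dendritic cell genes was 0.35 to 0.52 in SP birds with W transcripts and -0.13 to -0.01 in those without. The B and T cell levels overlapped between these strata. The part of sex and of these levels in the strata was not tested. The medians in birds without W transcripts were not computed without replicate 2. The difference between these strata was tested as an interaction: it was more negative in birds with W transcripts for all 54 members in both comparisons, with medians of -0.76 for SPM and -0.71 for SPH compared with SP. Both interactions contain the same 3 SP birds with and 3 SP birds without W transcripts, so the 2 comparisons are not separate observations. The SP birds without include the low replicate 2, and the interaction was not fitted without that bird. The members also varied together from bird to bird, so counts of members are not counts of separate observations. No member's interaction passed an adjusted limma p of 0.05 (Benjamini-Hochberg), the smallest being 0.108 for SPC25 in SPH compared with SP. At an unadjusted limma p under 0.05 there were 37 members for SPM, against 4.66% of all genes, and 36 for SPH, against 6.74% of all genes.

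SP replicate 2, a bird without W transcripts, decided the count of calls. It had the lowest level of both families among the SP birds, so leaving it out had to widen the difference in level from SPM birds. The calls without it are therefore no separate support. Without this bird, 18 members passed the call in SPM compared with SP by limma with Benjamini-Hochberg adjustment, against 0.567% of all genes in that direction. These were 9 replication and 9 mitotic genes with log2 fold changes of -0.92 to -0.52. Of the members, 11 passed both without this bird and in birds with W transcripts alone. Every bird with W transcripts was also in the fit without this bird, so these fits share birds and are not separate checks. MCM2 was at -0.71 and KIF11 at -0.85 without this bird.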

How the data were processed

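Ileum RNA of 24 broilers was sequenced, and groups were taken from the labels. The authors deposited FPKM values per gene, with symbol, position and length, after removing reads with adapters and mapping the rest to the reference genome. The methods name a NEBNext Ultra kit and the labels a TruSeq kit; the processing notes name Bowtie 0.12.2 and the builds GRCg6a and mm8, with no role, and the counter is not given in the sources used here. From the FPKM and gene lengths, whole reads came out for all 440917 values above 0 (within 0.001 reads), and the scaling equalled median-of-ratios factors.

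Genes with a mean of at least 0.1 FPKM (17288) were fitted on log2(FPKM + 0.1) with limma 3.58.1 (R 4.3.3), with a trend and all 24 birds in 1 fit; fold changes on this scale understate changes of low genes. Calls took the limits of the methods, an adjusted p (Benjamini-Hochberg) below 0.05 with a log2 fold change beyond 0.5 in either direction. These methods used counts and another tool; a count test was not the main test because the deposited unit was FPKM. Single members were also compared by exact two-sided permutation (every regrouping of the 12 birds, smallest p 0.00216). The main limma call was checked on simulated counts, drawn for each gene separately, with some genes changed in SP birds. The other steps were not checked in this way. The members and all lists were chosen with earlier results of these data known. Members named were the most abundant of each role list, those with the smallest p in each main comparison, the member on the Z chromosome and the member under the filter; in the other cell cycle lists they were the gene with the smallest p and CCND1, CDKN1A, CDKN1B, FOXM1 and MYBL2. Others are named as examples, with values in the same tests. Alternatives were other pseudocounts and filters, 2 groups per fit, a replicate block, quantile normalization, array weights, limma-voom on the recovered reads, terms for W transcripts and leaving out each bird; birds without W transcripts alone were added after the data were seen. Reads give counting precision only, and p-values measure the spread between birds, 1 per replicate.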

Additional observations from a re-analysis of the deposited data

Results flagged for a closer look

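Within each group of 6 birds, the highest and the lowest values, as log2(FPKM + 0.1), of the 21 named members tested, and of the replication and mitotic levels, were compared with the rest of the group by Dixon's gap against its 95% critical value for 6 samples, and 5 of the 92 groups examined passed it; chance passes about 1 in 20. SP replicate 2 was the lowest SP bird in MCM2, at 14.6 FPKM against 18.4 to 21.0 in the other SP birds, and in PCNA, at 54.4 FPKM against 74.8 to 90.2. CTL replicate 2 was the highest CTL bird in MCM2, at 18.9 FPKM against 13.9 to 15.2, and in ORC1, at 7.37 FPKM against 3.13 to 4.02. SPH replicate 3 was the highest SPH bird in NEK2, at 12.3 FPKM against 5.29 to 6.63.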

How the results depend on the processing

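No member passed the call in any of the 6 comparisons under any alternative but 2, both in SPM compared with SP: birds with W transcripts alone gave 15 and leaving out each bird gave 0 to 18, the upper end without SP replicate 2. In birds with W transcripts alone the median log2 fold changes of replication and mitotic genes were -0.76 and -0.85 in SPM compared with SP, and -0.41 and -0.56 in SPH compared with SP; in birds without they were -0.12 and -0.0136, and 0.21 and 0.23. In SPH compared with SP, 4 named members turned to the other direction in birds without W transcripts: CENPN at 0.000698, NEK2 at 0.27, ORC1 at 0.0337 and TPX2 at 0.14. The cause was not tested. Leaving out each bird moved the medians of SPM compared with SP between -0.56 and -0.40 (replication) and between -0.57 and -0.39 (mitotic). Members past the fold limit at an unadjusted limma p under 0.05 in SPM compared with SP numbered 22 in all birds (against 3.2% of all genes), 49 in birds with W transcripts alone and 37 without SP replicate 2. In birds with W transcripts alone they numbered 27 in SPH compared with SP (0 in all birds), 16 in SP compared with CTL (1) and 9 in SPM compared with CTL (0). In SPM compared with SPH they numbered 0 (4), and 0 to 10 when each bird was left out. The shares over all genes in these subsets are not given here, and such shares can rise as well. Genes higher in SP than in CTL birds at an unadjusted limma p under 0.05 were 2.87% of all genes in all birds and 5.07% in birds with W transcripts. Of 1039 values under alternatives, 979 kept their direction and side. Birds with the same replicate number did not deviate together (correlations of -0.20 to 0.24, 1 of 36 over 0.1), and with the replicate block 0 members were called and the SPM compared with SP medians were -0.48 and -0.47. With limma-voom on recovered reads 0 members were called in each comparison. Promoter motifs were not run. With 6 birds per group, standard errors of the named members lay between 0.11 and 0.30 on the log2 scale.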

Other observations

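KIFC1, a kinesin annotated as a pseudogene in the deposited table, was named after its values were seen. It averaged 3.92 ± 2.41 FPKM in SPM, 9.68 ± 7.07 FPKM in SPH, 3.80 ± 1.06 FPKM in SP and 7.004 ± 4.06 FPKM in CTL birds (mean ± SD, n = 6 each). It went against most mitotic members in SPH compared with SP, with a log2 fold change of 1.05 (SE 0.47, adjusted limma p 0.525 by Benjamini-Hochberg). In SP compared with CTL it also did, at -0.77 (SE 0.47). Like the members, it was lower on the log2 scale in SPM than in SP birds, at -0.19 (SE 0.47), and than in SPH birds, at -1.24 (SE 0.47). By their medians of 0.31, 0.31 and 0.73, enterocyte, smooth muscle and red blood cell genes went the other way from the members in SPM compared with SP. Not every gene did: CDX1 of the enterocyte list averaged 125 FPKM in SPM and 137 in SP birds. The enterocyte level was 0.15 ± 0.29 in SPM and -0.14 ± 0.39 in SP birds (mean ± SD, n = 6 each). Levels of these lists over 24 birds had Pearson r of -0.54, -0.46 and -0.31 with the replication level. With group means removed, r was -0.45, -0.39 and -0.15. Macrophage and dendritic cell genes had r = 0.62 with the mitotic and 0.53 with the replication level, and T cell genes 0.57 and 0.55.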
